A study of Mus musculus with 7 samples.

Results

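The mouse mitochondrial genome is a small circle of DNA, and the count files place 37 of their 52550 genes on it, chosen here by a single rule: the chromosome column reads chrM. They comprise 13 protein-coding genes, 2 ribosomal RNA genes and 22 transfer RNA genes, with 28 on the plus strand and 9 on the minus strand. Counts came from 7 libraries of polyadenylated RNA of Paneth cells, the lysozyme-secreting cells found at the bottom of the crypts of the small intestine, sorted by CD24 and side scatter as negative for TER119, CD31 and CD45. DSS libraries (n = 4) were made from mice given 3% dextran sulfate sodium, a polymer that damages the gut lining, in drinking water for 7 days and killed 3 days after its removal. Control libraries (n = 3) were made from mice on plain water. All mice of both groups carried the Lgr5-EGFP-IRES-CreERT2 allele, a knock-in at the stem cell gene Lgr5, in the C57BL/6J strain. Ages given for DSS libraries 1 to 4 were 12, 10, 10 and 10 weeks, and those for water libraries 1 to 3 were 12, 12 and 10 weeks. The series as a whole asks how Paneth cells respond to inflammation and to signalling by SCF through its receptor c-Kit.

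Every protein made from mitochondrial DNA is a core subunit of the respiratory chain or of the ATP synthase, and works beside many subunits encoded in the nucleus. Both strands are transcribed as long RNAs, from which tRNAs sitting between the other genes are cut out, a process that frees the mRNAs and rRNAs at the same time. Most of the mRNAs, and to a lesser degree the rRNAs, then receive short poly(A) tails, whereas tRNAs do not, so a library of polyadenylated RNA samples the 3 classes unequally. In the crypt, Paneth cells are known to rely more on glycolysis and their stem cell neighbours more on mitochondrial respiration.

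Parts of mitochondrial DNA were copied into nuclear chromosomes during evolution, and a read from an identical stretch can be assigned to either place. The C57BL/6J genome holds a large copy on chromosome 1, for which the files list 7 pseudogenes on the minus strand. The copies Gm28661 of mt-Co2, Gm10925 of mt-Atp6, Gm28437 of mt-Co3, Gm10222 of mt-Nd4l and Gm28439 of mt-Nd4 had 0 differing bases over their aligned length. Between mt-Nd3 and its copy Gm28438 the only difference in 345 bases was T3C, counted from 1 at the start of the mitochondrial gene, which is base 9461 of chrM. The copy Gm29216 covered mt-Co1 from base 1054 on, with 6 differences, T1056A, C1057T, A1059G, A1060G, C1062A and A1066T, followed by an identical run of 479 bases. The first 50 bases of both pairs are shown because these few bases, in capitals, are all that sets the chromosome 1 copies apart from the mitochondrial genes over the stretch compared. Sequences are GENCODE transcripts on GRCm38 (mm10), written 5′ to 3′ along the gene; the mitochondrial genes lie at chrM:9459-9508 and chrM:6381-6430 on the plus strand, and the copies at chr1:24613070-24613119 and chr1:24616148-24616197 on the minus strand.
mt-Nd3: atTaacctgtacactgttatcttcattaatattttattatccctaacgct
Gm28438: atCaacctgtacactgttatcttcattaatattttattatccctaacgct
mt-Co1: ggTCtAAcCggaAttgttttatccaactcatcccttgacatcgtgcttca
Gm29216: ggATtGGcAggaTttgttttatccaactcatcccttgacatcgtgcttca

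In map order, mt-Co2, mt-Atp6 and mt-Co3, just ahead of mt-Nd3, and mt-Nd4l and mt-Nd4, just after it, were counted in different places. On chrM, mt-Co2 had 0 counts in all 4 DSS libraries and 1, 1 and 46 counts in water 1 to 3, while its chromosome 1 copy Gm28661 had 60998 to 95947 counts in DSS and 57926 to 71423 in water. Likewise, mt-Atp6 had 0 or 1 counts on chrM in DSS and 20, 0 and 21 in water 1 to 3, against 82076 to 125747 counts in DSS and 76982 to 96864 in water for the mt-Atp6 copy Gm10925. With 1 to 8 counts on chrM in DSS and 0 to 7 in water, mt-Co3 was likewise counted at its copy Gm28437, which held 66162 to 108767 counts in DSS and 60691 to 75920 in water. Beyond mt-Nd3 the pattern was the opposite: the copy Gm10222 of mt-Nd4l had 0 counts in every library, and the copy Gm28439 of mt-Nd4 had 3 to 52 counts in DSS and 4 to 34 in water. Reads of mt-Nd3 itself were split, with 49.3%, 45.2%, 48.7% and 47.0% of the gene-plus-copy counts on chrM in DSS 1 to 4, against 48.3%, 55.1% and 50.3% in water 1 to 3. In both groups mt-Co2, mt-Atp6 and mt-Co3 were thus counted almost wholly at nuclear copies, mt-Nd4l and mt-Nd4 almost wholly on chrM, and mt-Nd3, between them, in both places. What placed them so was not tested.

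A search for stretches of 50 identical bases found 14 nuclear genes in the files, 7 of them outside the chromosome 1 copy. The largest of these, Gm13340 on chromosome 2, shares 27.5% of the overlapping 50-base windows of mt-Co1. It had 40536 to 63984 counts in DSS and 35174 to 44040 in water. Its neighbour Gm13341 shares 35.3% of such windows of mt-Co2 and had 15622 to 23603 counts in DSS and 13262 to 16864 in water. Summed with its 3 copies, 59.3% ± 0.641 of the mt-Co1 counts in DSS and 58.8% ± 0.683 in water (SD, n = 4 and 3) lay on chrM. The genes mt-Nd1, mt-Nd6, mt-Cytb and mt-Rnr1 had no such copy, and mt-Rnr2, mt-Nd2 and mt-Nd5 kept 94.1% or more of their counts on chrM in each library. The copies of these last 3 were small: Gm11407 and Gm4076, which share sequence with mt-Nd5, changed by 0.08 ± 0.09 and 0.06 ± 0.12 on the log2 scale, and Gm20594, which shares sequence with mt-Rnr2, by -0.25 ± 0.22. Gm13339, on chromosome 2, shares 81 of the 989 overlapping 50-base windows of mt-Nd2. It had 872 to 1860 counts in DSS and 1269 to 1856 in water. Its normalised levels in all DSS libraries were below those in all water libraries (log2 change -0.57 ± 0.14, edgeR adjusted p = 0.147). Where a gene has copies, values below are therefore given for the chrM gene alone and for the sum, which was added after seeing the data. The sum takes all counts of a copy, also where only part of the sequence is shared.

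**Figure D1:**
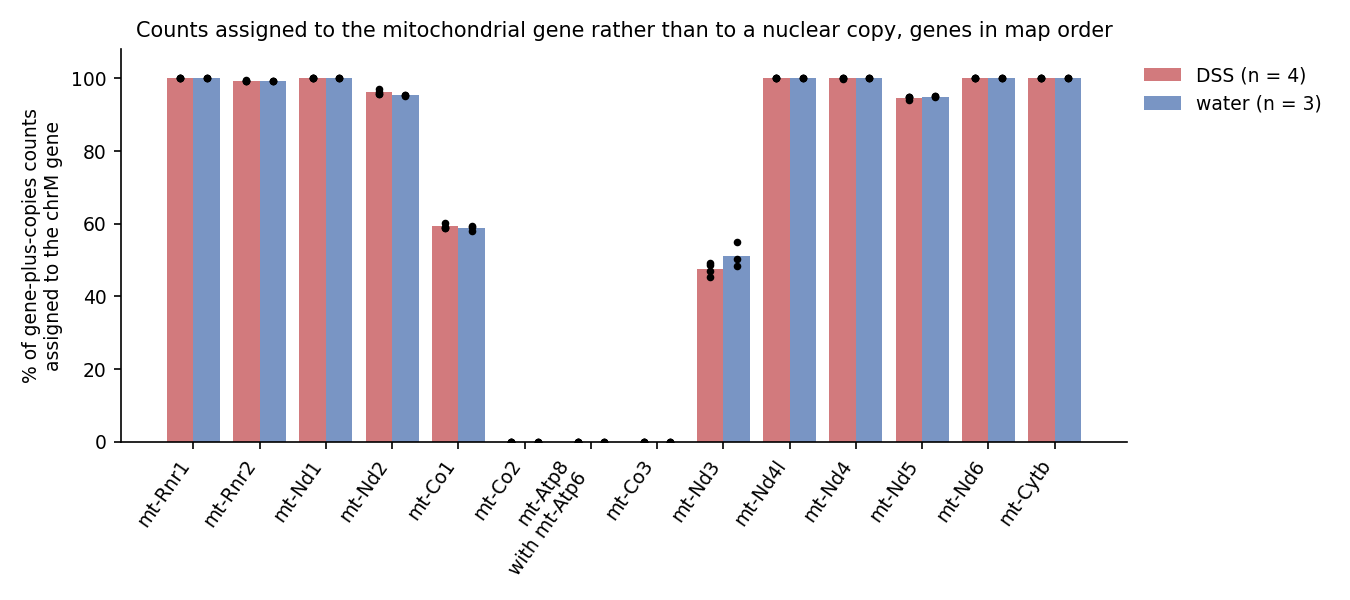
Percent of the counts of each mitochondrial gene plus its nuclear copies that were assigned to the chrM gene, in map order (bars, group means; points, single libraries; DSS left of water). The bars of mt-Co2, mt-Atp8 with mt-Atp6 and mt-Co3 are at 0 to the eye, mt-Nd3 stands near the middle at 47.6% in DSS and 51.2% in water, and mt-Nd4l and mt-Nd4 stand at 100% or just under.

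Library totals ran from 23175708 to 32451653 counts. Paneth markers were abundant in all 7 libraries, with Lyz1, the Paneth lysozyme, at 39039 to 77961 CPM (counts scaled to a common, TMM-normalised library size) in DSS and 99882 to 108235 CPM in water. The summed CPM of 15 Paneth markers was 128596 to 223650.4 in DSS and 261607 to 279624 in water, so that the groups did not overlap. Of the 15, 4 had all DSS values below all water values and 0 had all above, against 7.51% and 7.4% of all genes. The other Paneth markers overlapped between the groups. Of markers of other cell types, 12 enterocyte markers summed to 1077 to 1224 CPM in DSS and 1109 to 1240 CPM in water, and 8 goblet markers to 7898 to 13082 CPM in DSS and 9973 to 11147 CPM in water. Summed levels were 2997 to 3841 CPM in DSS and 3264 to 3905 CPM in water for 8 stem cell markers, and 525 to 1045 CPM in DSS and 559 to 626 CPM in water for 10 tuft markers. The 10 enteroendocrine markers summed to 2765 to 4545 CPM in DSS and 2975 to 6028 CPM in water, the 8 cycling markers to 565 to 737 CPM in DSS and 681 to 868 CPM in water. Markers of the cells gated out were low: Ptprc, which encodes CD45, stood at 7.86 to 16.8 CPM in DSS and 8.10 to 13.5 CPM in water, S100a8 was at 0 in every library, and 6 red cell markers summed to at most 3.06 CPM in DSS and 1.92 CPM in water. The 10 leukocyte markers summed to 3777 to 7104 CPM in DSS and 9967 to 10257 CPM in water, nearly all of it Lyz2, which Paneth cells also express. The part of any of these cell types in the mitochondrial values was not tested. DSS 1 stood nearest to water in its share of Paneth granule counts, and DSS 1 and DSS 2 had the highest shares of nuclear rRNA counts, 0.0445% and 0.0573%, against 0.0236% to 0.0296% in the other 5 libraries. The November days of RNA isolation were 9, 16, 16 and 24 for DSS 1 to 4, against 14, 14 and 21 for water 1 to 3, so day and group cannot be told apart. A number in the library names is read here as the sequencing lane, which the labels do not state. It was 8 for DSS 1 and DSS 3 and 6 for DSS 4 and all water libraries, and DSS 2 is marked as merged. Lane and group are thus largely bound together as well.

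Mitochondrially encoded genes took about the same part of the library in both groups. Their share of all counts was 2.01%, 2.05%, 2.29% and 2.33% in DSS 1 to 4, against 2.08%, 1.71% and 1.99% in water 1 to 3. The means were 2.17% ± 0.164 in DSS and 1.93% ± 0.193 in water (SD, n = 4 and 3), and the groups overlapped. With the counts of all 14 copies added, the share was 3.75% ± 0.333 in DSS and 3.33% ± 0.297 in water, also overlapping. Paneth granule genes (50 genes, the alpha-defensins and 11 others such as Lyz1 and Itln1) differed between the groups: they took 30.3%, 26.1%, 21.3% and 21.3% of the counts in DSS 1 to 4, against 32.6%, 34.7% and 33.5% in water 1 to 3. All 4 DSS values were below all 3 water values. As a percent of the counts outside granule genes, mitochondrially encoded genes had 2.88%, 2.78%, 2.91% and 2.96% in DSS 1 to 4, against 3.09%, 2.62% and 2.99% in water 1 to 3. On that base the means were 2.88% ± 0.0765 in DSS and 2.90% ± 0.246 in water, so the small excess in DSS seen over all counts was not present. In bulk libraries, fewer Paneth cells and less granule RNA per cell cannot be told apart, and a mitochondrial share likewise does not separate the number of cells from the RNA in each.

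The 3 RNA classes held very unequal parts of the mitochondrial counts. Protein-coding genes held 95.7% ± 0.308 of the counts on chrM in DSS and 95.9% ± 0.211 in water, rRNA genes 3.90% ± 0.296 in DSS and 3.73% ± 0.189 in water, and tRNA genes 0.380% ± 0.0215 in DSS and 0.387% ± 0.0216 in water. Set against all counts, protein-coding genes took 2.08% ± 0.155 in DSS and 1.85% ± 0.182 in water. The rRNA genes took 0.0847% ± 0.0103 of all counts in DSS and 0.0721% ± 0.0106 in water, and the tRNA genes 0.00825% ± 0.000789 in DSS and 0.00747% ± 0.00114 in water. The groups overlapped for each class on both bases. For any of these shares in a single library, the exact 95% binomial interval reached at most 0.0605 percentage points to either side, which covers counting error only.

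**Figure D2:**
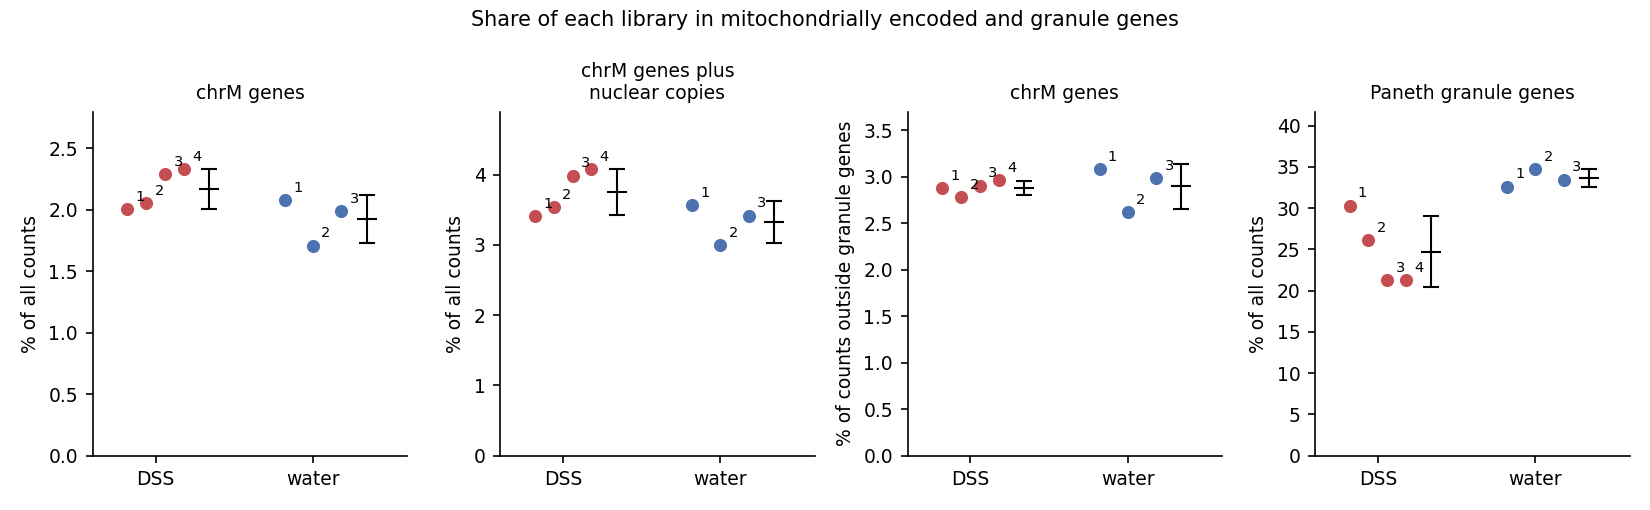
Share of each library in mitochondrially encoded genes (of all counts; with nuclear copies; of counts outside granule genes) and in Paneth granule genes, in percent, with DSS left of water; numbered points are libraries and the bars beside them the mean ± SD. The mitochondrial shares overlap between groups in each of the 3 forms, whereas all 4 DSS points lie below all 3 water points for granule genes (24.7% and 33.6% on average).

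The comparison of DSS with water, fitted by edgeR on the whole table, called none of the mitochondrially encoded genes. Of the 37, 26 passed the filter on low counts (9 protein-coding, 2 rRNA and 15 tRNA genes), and 5 had 0 counts in all libraries, namely mt-Atp8, mt-Ty, mt-Ts1, mt-Td and mt-Tk. At an adjusted p under 0.05, 0 of the 26 were higher and 0 were lower in DSS, and the background over all 17449 genes tested was 0% in each direction. At an unadjusted p under 0.05, 1 of the 26 was higher, mt-Tp, against 8.36% of all genes, and 3 were lower, mt-Nd3, mt-Nd2 and mt-Ti, against 7.35% of all genes. In 1 gene (mt-Tp) all DSS values were above all water values, against 7.4% of all genes, and in 2 (mt-Nd3 and mt-Ti) all were below, against 7.51%. The estimate was below 0 for 23 of the 26 and above 0 for 3, with a median log2 change of -0.14, against -0.0015 over all genes. These genes are read from shared long RNAs in the same libraries, so the 26 signs are not independent. The signs depend on the scaling: TMM factors were 0.980 to 1.14 in DSS and 0.899 to 0.922 in water, and scaling by library totals alone shifted the median of all genes to 0.23 and turned the estimates of 11 of the named genes positive. At 0 calls over the whole table, 1459 genes were higher and 1283 lower at an unadjusted p under 0.05. Of the 12561 genes to which DESeq2 gave an adjusted p, it called 350 higher (2.79%) and 295 lower (2.35%). Among these were 2 mitochondrially encoded genes, mt-Tp higher and mt-Nd3 lower.

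**Figure D3:**
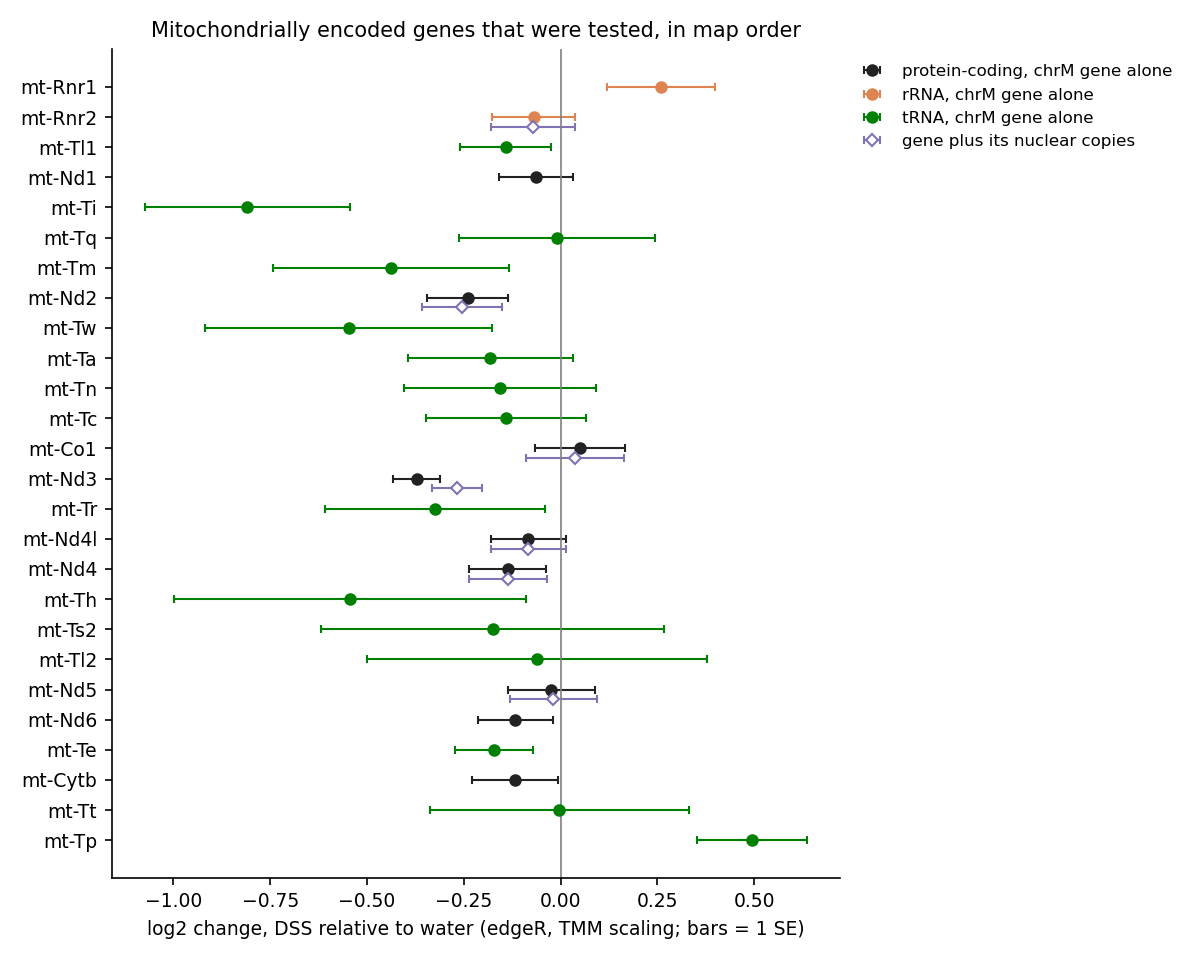
Log2 change in DSS relative to water for the 26 tested mitochondrially encoded genes in map order (filled points, the chrM gene alone, coloured by RNA class; open diamonds, the gene summed with its nuclear copies; bars, 1 SE of the edgeR fit). Estimates of the mRNAs lie between -0.37 and 0.05, mt-Nd3 is furthest below 0 relative to its error, and mt-Tp is the highest at 0.49.

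Of the 2 ribosomal RNAs, mt-Rnr1 is the RNA of the small and mt-Rnr2 that of the large subunit of the mitochondrial ribosome, and they lie side by side near the start of the map (chrM:70-1024 and chrM:1094-2675, both plus strand). The level of mt-Rnr1 was 137, 159, 197 and 200.2 CPM in DSS 1 to 4, against 161, 129 and 145 CPM in water 1 to 3. DSS 3 and DSS 4 were above all water libraries, while DSS 1 and DSS 2 lay among them. The log2 change was 0.26 ± 0.14 (SE), with an edgeR adjusted p of 0.408. It was 0.15 with age as a covariate, 0.46 among lane 6 libraries, where DSS 4 is the single DSS library, and 0.51 (adjusted p = 0.0768) with library totals alone. For mt-Rnr2 the level was 578, 660, 611 and 611 CPM in DSS 1 to 4, against 733, 546 and 657 CPM in water 1 to 3. These groups overlapped, and the log2 change of -0.07 ± 0.11 did not pass (adjusted p = 0.806), nor did that of the sum with its copy, also -0.07 ± 0.11 (adjusted p = 0.803).

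A ratio of counts within a library needs no scaling. The count ratio of mt-Rnr2 to mt-Rnr1 was 4.22, 4.15, 3.10 and 3.05 in DSS 1 to 4, against 4.56, 4.23 and 4.54 in water 1 to 3. All DSS ratios were lower than all water ratios, DSS 1 and DSS 2 only just, DSS 3 and DSS 4 by more. The mean log2 ratio was lower in DSS by 0.31 (a difference of -0.31), with an exact two-sided permutation p of 0.0571. That is the smallest p that 35 splits of 4 against 3 allow, so the test could not pass, and adjusted over the 3 ratios it was 0.171. DSS 3 and DSS 4 also had the lowest granule shares, 21.3% each, and, among the DSS libraries, the lowest nuclear rRNA shares (0.0296% and 0.0236%). The part of these in the ratio was not tested. The other 2 ratios differed by less than the spread between libraries: mt-Rnr2 to mt-Nd1, the next mRNA on the same strand, was 0.304 ± 0.0190 in DSS and 0.305 ± 0.0215 in water (SD; exact permutation p = 0.971), and mt-Nd6 to mt-Cytb, which lies beside it on the other strand, was 0.118 ± 0.0124 in DSS and 0.118 ± 0.00448 in water (exact permutation p = 0.971). Counting took no account of strand, which limits this last ratio.

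Complex I, which takes electrons from NADH, has 7 subunits encoded on chrM, mt-Nd1 to mt-Nd6 and mt-Nd4l, and all were tested. The clearest difference was in mt-Nd3, which encodes a small membrane subunit of complex I. It had 136, 125, 137 and 138 CPM in DSS 1 to 4, against 167, 179 and 174 CPM in water 1 to 3. The 2 groups were separate, with means of 134 ± 5.86 CPM in DSS and 174 ± 5.84 CPM in water (SD, n = 4 and 3). The log2 change was -0.37 ± 0.06 (SE), rank 23 of 17449 by p, with an unadjusted p of 0.000193 and an edgeR adjusted p of 0.123, which did not pass. DESeq2 gave an adjusted p of 3.21e-05 for mt-Nd3, edgeR without the filter on low counts 0.0211 and edgeR without DSS 1 0.0453. It did not pass with limma-voom (adjusted p = 0.111), or in edgeR with age as a covariate (0.382) or library totals alone (0.291). Leaving out each library other than DSS 1 in turn gave edgeR adjusted p-values of 0.197 to 0.440. Over all genes, edgeR without the filter called 0.684% higher and 0.573% lower, and without DSS 1 it called 0.97% higher and 0.779% lower.

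With a large part of its reads counted on chromosome 1, mt-Nd3 was also read as the sum with Gm28438. The sum was 276, 277, 281 and 294 CPM in DSS 1 to 4, against 347, 325 and 347 CPM in water 1 to 3, still with no overlap. Its log2 change was -0.27 ± 0.06 (unadjusted p = 0.00246, adjusted p = 0.141), and that of the copy alone was -0.17 ± 0.08 with overlapping groups. Without DSS 1 the sum changed by -0.26 (adjusted p = 0.118), and with copies summed 0 mitochondrial genes were then called. Among the libraries from lane 6 (DSS 4 and all water libraries) the chrM gene changed by -0.33, and among 10-week mice (DSS 2 to 4 and water 3) by -0.38. Each of these subsets has 1 library in an arm, so only the size of the change is given. Under scaling by library totals alone the log2 change was -0.14 for the chrM gene and -0.03 for the sum, so its size rests on the scaling. Set against mt-Nd1, which needs none, mt-Nd3 had a count ratio of 0.0690, 0.0630, 0.0679 and 0.0655 in DSS 1 to 4, against 0.0744, 0.0925 and 0.0810 in water 1 to 3. This ratio was chosen after its values were seen, and all DSS values lay below all water values.

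The other complex I genes showed smaller differences. The level of mt-Nd2 was 1332, 1228, 1179 and 1270.5 CPM in DSS 1 to 4, against 1581, 1283 and 1574 CPM in water 1 to 3. DSS 1 was above water 2, so the groups overlapped, and the log2 change of -0.24 ± 0.10 had an unadjusted p of 0.0461 and an adjusted p of 0.310. Summed with its copy it was -0.25 ± 0.10 (adjusted p = 0.287). Under scaling by library totals alone the log2 change was -0.0092 for the chrM gene and -0.02 for the sum. For mt-Nd1 the means were 2022 ± 61.9 CPM in DSS and 2112 ± 162 CPM in water, and for mt-Nd4 2931 ± 96.0 CPM in DSS and 3222 ± 218 CPM in water. The gene mt-Nd4l, whose last 7 bases are also the first of mt-Nd4, had 507 ± 26.7 CPM in DSS and 537 ± 63.4 CPM in water. For mt-Nd5 the means were 1861 ± 80.9 CPM in DSS and 1891 ± 245 CPM in water. The one minus-strand mRNA, mt-Nd6, shares 14 bases with mt-Nd5 on the opposite strand and had 462 ± 28.7 CPM in DSS and 501 ± 58.5 CPM in water. Log2 changes of these 5 genes were -0.02 to -0.14, each with overlapping groups and an adjusted p of 0.555 or higher. Sums with copies gave -0.14 ± 0.10 for mt-Nd4, -0.08 ± 0.10 for mt-Nd4l and -0.02 ± 0.11 for mt-Nd5.

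Complex III has a single mitochondrial subunit, cytochrome b, encoded by mt-Cytb. It stood at 4163, 3874, 3658 and 3968 CPM in DSS 1 to 4, against 4529, 3845 and 4378 CPM in water 1 to 3. The log2 change was -0.12 ± 0.11 with an adjusted p of 0.657. Water 2 lay within the DSS range and the other 2 water libraries above it.

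Complex IV, cytochrome c oxidase, has 3 mitochondrial subunits. The largest, mt-Co1, had 6222, 6009, 6355 and 6578 CPM in DSS 1 to 4, against 6617, 5542 and 6077 CPM in water 1 to 3, a log2 change of 0.05 ± 0.12. It was the one mRNA with a positive estimate in the fit of the chrM genes, and the groups overlapped. Summed with its 3 copies its log2 change was 0.04 ± 0.13. The genes mt-Co2 and mt-Co3 were too low on chrM to be tested and can be read only as sums. Together with its copies, mt-Co2 had 3463 ± 137 CPM in DSS and 3634 ± 188 CPM in water, a log2 change of -0.07 ± 0.10. The corresponding values for mt-Co3 were 3014 ± 209 CPM in DSS and 3138 ± 202 CPM in water, a log2 change of -0.06 ± 0.11. None of the 3 passed (adjusted p from 0.794 to 0.921).

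The ATP synthase, or complex V, has the subunits mt-Atp6 and mt-Atp8, whose genes overlap by 43 bases. Both were at or near 0 on chrM, with no count of mt-Atp8 in any library, and the chromosome 1 copy Gm10925 covers all but the end of mt-Atp6 but only 43 of the 204 bases of mt-Atp8. No pseudogene of the files covers the rest of mt-Atp8. As a sum with Gm10925, the pair had 3618, 3503, 3607 and 3817 CPM in DSS 1 to 4, against 4298, 3699 and 4064 CPM in water 1 to 3. DSS 4 lay above water 2, so the groups overlapped, and the log2 change of -0.14 ± 0.11 did not pass (adjusted p = 0.555).

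Per kilobase, with copies added, mt-Co1 was the highest at 6863 ± 273 CPM per kilobase in DSS and 6689 ± 517 in water, followed by mt-Co2 at 5063 ± 201 in DSS and 5312 ± 274 in water. The pair mt-Atp8 with mt-Atp6 came next, at 4319 ± 156 CPM per kilobase in DSS and 4775 ± 358 in water, then mt-Co3 at 3844 ± 267 in DSS and 4002 ± 258 in water and mt-Cytb at 3423 ± 183 in DSS and 3716 ± 314 in water. The 842 bases used for the pair include bases of mt-Atp8 that the counted copy does not cover, so its place in this order is not fixed. In water, mt-Co3 and mt-Cytb differed by less than the SD of mt-Cytb. Complex I genes followed, from mt-Nd4 at 2128 ± 70.2 CPM per kilobase in DSS and 2339 ± 159 in water down to mt-Nd6 at 889.9 ± 55.3 in DSS and 965 ± 113 in water and mt-Nd3 at 810.1 ± 24.1 in DSS and 975 ± 36.3 in water, which in water differed by less than their SD. Of these, mt-Nd4 and mt-Nd1 (2112 ± 64.7 in DSS and 2207 ± 170 in water) differed by less than their SD. Both rRNAs were lower than any mRNA per kilobase, mt-Rnr2 at 391 ± 22.1 CPM per kilobase in DSS and 411 ± 59.7 in water and mt-Rnr1 at 181 ± 32.05 in DSS and 152 ± 16.5 in water. These levels are from libraries of polyadenylated RNA, and say nothing of mRNA or rRNA without a tail.

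As parts of the protein-coding counts on chrM, which also need no library scaling, the 4 complexes differed slightly in their parts. Complex I took 47.3%, 47.3%, 47.7% and 47.0% in DSS 1 to 4, against 48.8%, 48.7% and 49.5% in water 1 to 3. Complex IV, nearly all of it mt-Co1, took 31.6%, 32.1%, 33.2% and 33.0% in DSS 1 to 4, against 30.4%, 30.3% and 29.4% in water 1 to 3. In both the groups did not overlap, complex I being lower and complex IV higher in DSS; no test was made of these sums. Complex III took 20.2% ± 0.879 in DSS and 21.0% ± 0.169 in water, overlapping. With all copies added, which brings in mt-Co2, mt-Co3 and mt-Atp6, complex IV took 50.1% ± 0.983 in DSS and 48.0% ± 0.637 in water, again with no overlap. On that base complex V took 10.7% ± 0.0635 in DSS and 11.3% ± 0.0651 in water with no overlap, and complex I 27.8% ± 0.413 in DSS and 28.8% ± 0.557 in water with overlap. The part of mt-Nd3 was 0.827% ± 0.0137 in DSS and 0.955% ± 0.0423 in water.

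**Figure D4:**
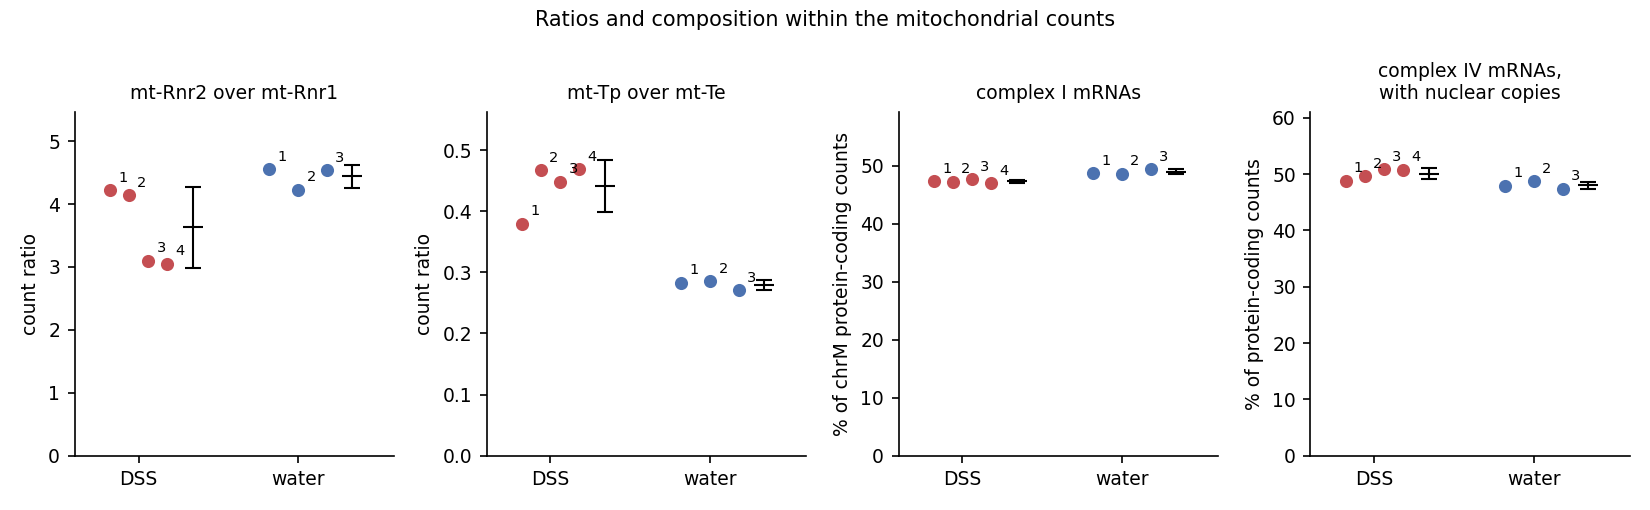
Count ratios of mt-Rnr2 to mt-Rnr1 and of mt-Tp to mt-Te, and percent of protein-coding counts in complex I (chrM alone) and in complex IV (with nuclear copies), for each library, DSS left of water; bars beside the points are the mean ± SD. In each panel the 4 DSS points and the 3 water points do not overlap, and DSS 3 and DSS 4 have the lowest mt-Rnr2 to mt-Rnr1 ratios at 3.10 and 3.05. With nuclear copies added (not drawn), the groups overlap for complex I.

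The 22 tRNA genes were sparsely counted. Summed, they had 75.6, 76.2, 81.3 and 74.3 CPM in DSS 1 to 4, against 92.8, 69.4 and 83.6 CPM in water 1 to 3, a mean of 76.9 ± 3.06 in DSS and 81.9 ± 11.8 in water. The groups overlapped. The 5 highest were mt-Te, mt-Tl1, mt-Tp, mt-Tn and mt-Tc, and the first of them, the glutamate tRNA mt-Te, alone had 28.5 ± 3.18 CPM in DSS and 32.1 ± 3.16 CPM in water. The leucine tRNA mt-Tl1 had 14.0 ± 1.33 CPM in DSS and 15.5 ± 2.11 CPM in water, the asparagine tRNA mt-Tn 5.59 ± 1.52 in DSS and 6.21 ± 1.78 in water, and the cysteine tRNA mt-Tc 4.23 ± 0.728 in DSS and 4.67 ± 1.33 in water. Log2 changes of these 4 were -0.14 to -0.17, with adjusted p-values of 0.455 or higher. At 0 in all libraries were mt-Ty, just ahead of mt-Co1, and mt-Ts1, mt-Td and mt-Tk, which lie between mt-Co1 and mt-Atp8. Of the neighbouring genes, mt-Co2 was counted almost wholly at nuclear copies. By contrast, mt-Co1 kept 59.3% of its summed counts on chrM in DSS and 58.8% in water. Why these tRNA genes had no counts was not tested. The files list no tRNA gene in the chromosome 1 copy. A count of 0 at these depths allows a level counted at these genes of up to 0.0924 to 0.129 CPM per library, 3 counts of the total, and sets no limit on RNA whose reads were counted elsewhere.

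Among the tRNAs, mt-Tp and mt-Ti had groups that did not overlap, and their sequences are given because each is short and shares its surroundings with other genes. Capitals mark bases that the gene shares with an annotated neighbour: 2 bases of mt-Ti with mt-Nd1 on the same strand and 3 with mt-Tq on the opposite strand, none for mt-Tp. The gene mt-Tp lies at chrM:15356-15422 on the minus strand and mt-Ti at chrM:3706-3774 on the plus strand.
mt-Tp: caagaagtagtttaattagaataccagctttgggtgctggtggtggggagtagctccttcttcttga
mt-Ti: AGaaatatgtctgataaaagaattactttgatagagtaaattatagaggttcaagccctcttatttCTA

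The proline tRNA mt-Tp, last on the map, had 9.87, 12.3, 14.7 and 13.6 CPM in DSS 1 to 4, against 9.50, 8.12 and 9.27 CPM in water 1 to 3. DSS 1 was only slightly above water 1, and the other 3 DSS libraries clearly above. The log2 change was 0.49 ± 0.14 (unadjusted p = 0.00711, edgeR adjusted p = 0.179). It passed with DESeq2 (adjusted p = 0.0425) and with library totals alone (log2 change 0.74, adjusted p = 0.0390), a scaling under which 12.1% of all genes were called higher and 0.16% lower. It did not pass with limma-voom (adjusted p = 0.160) or in edgeR with age as a covariate (0.466). Leaving out each library in turn gave edgeR adjusted p-values of 0.0501 to 0.445. Against mt-Te, the highest tRNA and on the same strand, its count ratio was 0.380, 0.467, 0.448 and 0.469 in DSS 1 to 4, against 0.283, 0.285 and 0.271 in water 1 to 3. That ratio was chosen after seeing the values; it needs no library scaling, and the groups were separate. Against 3 other minus-strand tRNAs this held only in part: the ratio to mt-Tc was 2.31 to 3.63 in DSS and 1.53 to 2.28 in water, separate by a narrow margin, whereas the ratios to mt-Tn (1.36 to 3.32 in DSS and 1.18 to 1.82 in water) and to mt-Ta (2.11 to 4.46 in DSS and 1.76 to 2.60 in water) overlapped. Counting without strand cannot tell mt-Tp from RNA of the opposite strand that runs past the end of mt-Tt.

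The isoleucine tRNA mt-Ti lay the other way, at 0.661, 0.383, 0.584 and 0.637 CPM in DSS 1 to 4, against 0.892, 1.15 and 0.923 CPM in water 1 to 3. These values rest on 13 to 21 counts a library in DSS and 20 to 24 in water. The log2 change was -0.81 ± 0.26 (adjusted p = 0.210). DESeq2 gave mt-Ti no adjusted p. The remaining 9 tested tRNA genes had log2 changes of -0.55 to -0.0036 with overlapping groups.

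**Figure D5:**
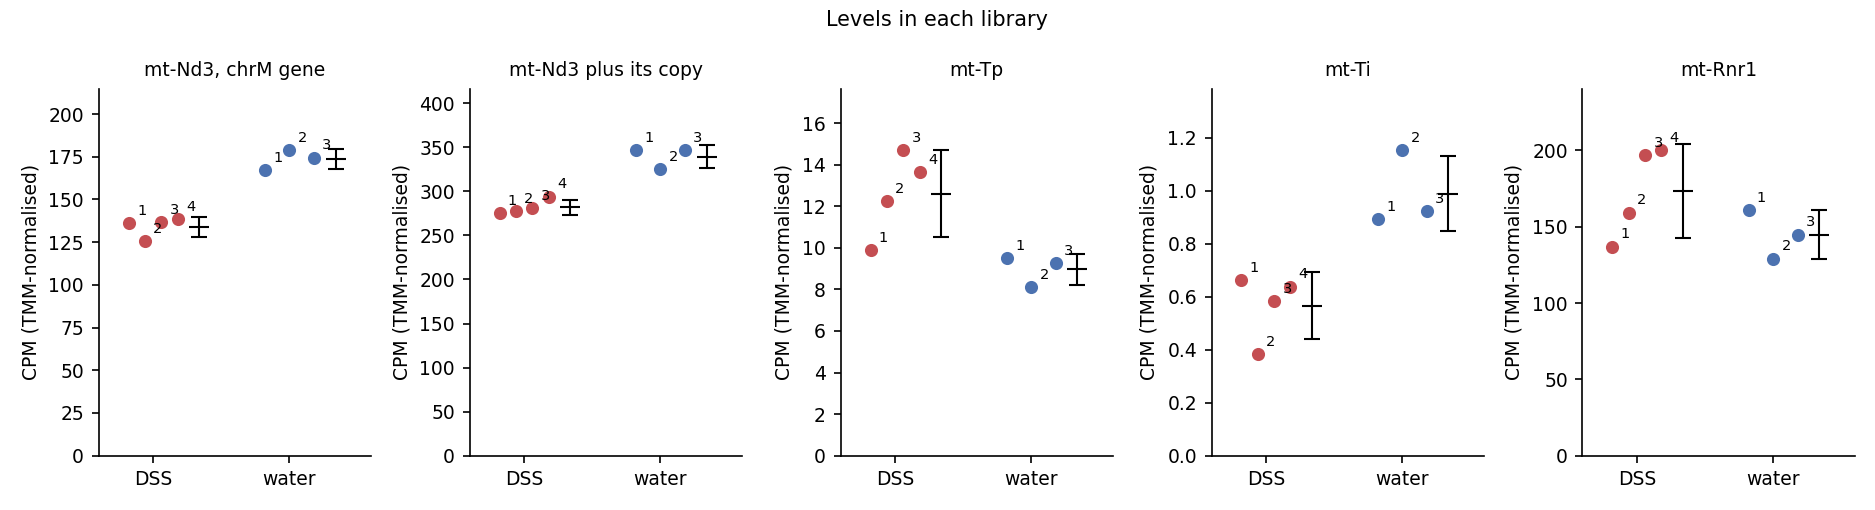
TMM-normalised CPM in each library for mt-Nd3 (chrM gene, and summed with its chromosome 1 copy), mt-Tp, mt-Ti and mt-Rnr1, DSS left of water, with the mean ± SD beside the points. The groups are separate for mt-Nd3 in both forms (134 and 174 CPM on average for the chrM gene), for mt-Tp and for mt-Ti, and overlap for mt-Rnr1, in which DSS 3 and DSS 4 are highest.

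Nuclear genes were taken from 8 lists, of mitochondrial functions, mitochondrial stress response, mitophagy and, apart from these, nuclear-retained RNAs. None of their members passed in either direction in edgeR (0% of all genes). DESeq2 called 8 of the 143 genes, 4 higher and 4 lower. Of all genes with a DESeq2 adjusted p, it called 2.79% higher and 2.35% lower. Among the 8 were Esrra, Ppargc1b and Phb2 as higher and Atf4, Rexo2, Yme1l1 and the nuclear-retained RNA Neat1 as lower. The genes named here had DESeq2 adjusted p-values of 0.00669 to 0.0249. Of 34 nuclear subunits of complexes I, III, IV and V, 5 had an unadjusted p under 0.05 with a higher level and 1 with a lower level, against 8.36% and 7.35% of all genes, and the median log2 change was 0.08. In 12 of the 34 all DSS values were above all water values and in 0 all were below, against 7.4% and 7.51% of all genes. Of 11 biogenesis regulators 3 were above and 0 below, of 22 genes of mass and import 5 and 0. Of 20 genes for mitochondrial DNA 2 were above and 2 below, of 28 for RNA processing 3 and 2. Of 15 stress response genes 1 was above and 3 below, of 11 tested mitophagy genes 1 and 2, of 5 nuclear-retained RNAs 1 and 0. The complex IV subunit Cox4i1 had 218 ± 16.8 CPM in DSS and 185 ± 10.2 CPM in water, a log2 change of 0.24 ± 0.08 (adjusted p = 0.219), and the ATP synthase subunit Atp5o had 85.6 ± 2.98 CPM in DSS and 75.4 ± 0.420 CPM in water, 0.18 ± 0.05 (adjusted p = 0.183). Uqcrc1 of complex III changed by 0.19 ± 0.06 and Uqcrb, of the same complex, by -0.18 ± 0.07.

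Of 11 regulators of mitochondrial biogenesis, 4 had an unadjusted p under 0.05 with a higher level and 0 with a lower one, against 8.36% of all genes higher and 7.35% lower (median log2 change 0.11). The coactivator Ppargc1b had 13.3 ± 1.54 CPM in DSS and 9.55 ± 0.437 CPM in water, a log2 change of 0.48 ± 0.11, and its partner, the nuclear receptor Esrra, 60.5 ± 6.54 CPM in DSS and 46.3 ± 2.54 CPM in water, 0.39 ± 0.09. Neither passed (adjusted p = 0.138 and 0.139), and both were higher in every DSS library than in any water library. The deacetylase gene Sirt3 changed by 0.21 ± 0.09 and Perm1 by 0.38 ± 0.17. Among 22 genes of mitochondrial mass and import, 6 were higher and 0 lower at an unadjusted p under 0.05, set beside the same 8.36% and 7.35% of all genes (median 0.09), with the prohibitins Phb2 at 0.22 ± 0.06 and Phb at 0.18 ± 0.06 and the ADP/ATP carrier Slc25a5 at 0.29 ± 0.10.

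Of 20 genes for transcription, replication and packaging of mitochondrial DNA, 2 were higher and 2 lower at an unadjusted p under 0.05 (against 8.36% of all genes higher and 7.35% lower), with a median log2 change of 0.01. Polrmt, the mitochondrial RNA polymerase, had 26.9 ± 0.910 CPM in DSS and 24.0 ± 1.14 CPM in water, 0.16 ± 0.06 (adjusted p = 0.268), and Atad3a, a protein of the inner membrane that binds nucleoids, changed by 0.27 ± 0.10. The rRNA methyltransferase Tfb1m changed by -0.25 ± 0.11 and the termination factor Mterf1b by -0.46 ± 0.19. Among 28 genes of mitochondrial RNA processing and decay, 2 were higher and 1 was lower at that level, beside the same 8.36% and 7.35% of all genes (median 0.06). The lower one was Rexo2, an exonuclease that degrades very short RNAs, with 32.9 ± 2.92 CPM in DSS and 41.9 ± 2.55 CPM in water, a log2 change of -0.35 ± 0.08 (adjusted p = 0.140). The higher ones were Hsd17b10, a subunit of the mitochondrial RNase P that cuts tRNAs at their 5′ end, at 0.25 ± 0.07, and the pseudouridine synthase Pus1 at 0.17 ± 0.07, while Fastkd3 changed by 0.29 ± 0.13.

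Of 15 genes of the mitochondrial unfolded protein and integrated stress response, 0 were higher and 4 lower at an unadjusted p under 0.05 (against 8.36% of all genes higher and 7.35% lower), with a median log2 change of -0.23. The transcription factor Atf4 had 214 ± 21.4 CPM in DSS and 275 ± 27.4 CPM in water, a log2 change of -0.37 ± 0.10 (adjusted p = 0.167). Its targets Trib3 and Gdf15 changed by -2.25 ± 0.64 and -1.22 ± 0.40, but Trib3 stood at 2.11 ± 1.58 CPM in DSS and 9.85 ± 8.52 CPM in water, with a wide spread, and the protease gene Yme1l1 changed by -0.23 ± 0.06. Of 11 tested mitophagy genes 1 was higher at an unadjusted p under 0.05 (Phb2, which is also in the list of mass and import) and 3 were lower, beside the same 8.36% and 7.35% of all genes (median -0.13). The lower ones were the receptors Bnip3l at -0.22 ± 0.06 and Fundc1 at -0.20 ± 0.08 and the adaptor Sqstm1 at -0.29 ± 0.12. Of 5 nuclear-retained RNAs, Neat1 had 239 ± 49.2 CPM in DSS and 391 ± 97.2 CPM in water, -0.71 ± 0.20 (adjusted p = 0.171), while Malat1 changed by -0.19 ± 0.12, Kcnq1ot1 by 0.48 ± 0.22 and Meg3 by -0.88 ± 0.73. Their summed level was 887 to 1122 CPM in DSS and 1134 to 1463 CPM in water, and its part in the mitochondrial values was not tested.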

How the data were processed

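What the authors deposited are raw counts, whole numbers of reads per gene, in 7 libraries. Per the file headers, featureCounts 1.5.3 counted exons by gene from primary alignments, with a minimum overlap of a fraction of 0.8 of the read and no strand option. Tools named in the submitters' processing notes are STAR 2.5.3a, DESeq2 and featureCounts 1.5.2, with build mm10. The read length is not given in the sources used here. Symbols came from GENCODE release 21 by identifier (52403 matched, 147 did not), and the files use release 15. Copies were found in the release 21 transcript sequences as shared stretches of 50 bases.

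Totals ran from 23175708 to 32451653 counts. The fit used edgeR 4.0.16 in R 4.3.3 (filterByExpr, 17449 genes, TMM factors, quasi-likelihood test, Benjamini-Hochberg at 0.05, no covariate). CPM are TMM-normalised, log2 changes are DSS relative to water, and errors on them are SE. Single ratios were compared by exact permutation in SciPy 1.17.1. DESeq2 1.42.0 and limma 3.58.1 were alternatives, with other scalings, filters, ages and lanes and each library left out. The edgeR fit was tested on simulated counts, and the alignment and permutation steps on made-up input. The other steps had no such test. Whether libraries come from different animals is not said outright in the labels, and p-values then measure only how these samples spread.

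The rule named all protein-coding and rRNA genes, the 5 highest tRNA genes, any tRNA that passed or was at 0 throughout, copies with a mean of at least 1 CPM and up to 4 members of each list with the smallest p; 1 such member and 1 marker are not reported here. The tRNA mt-Ti was named after its values were seen. Members and lists were chosen with earlier results of these data known.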

Additional observations from a re-analysis of the deposited data

Results flagged for a closer look

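One of 52 sets of 4 DSS values that were checked held a library far from the other 3, and chance alone gives about 5% of such sets. The percent of mt-Nd4 counts assigned to chrM was 99.93% in DSS 1, against 99.99%, 100% and 100% in DSS 2 to 4 and 99.99%, 99.99% and 99.96% in water 1 to 3. The gap of DSS 1 to its nearest neighbour was 0.942 of the whole DSS range. Behind it stand 52 counts of the copy Gm28439 in DSS 1, against 7, 3 and 3 in DSS 2 to 4 and 4, 5 and 34 in water 1 to 3.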

How the results depend on the processing

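Of 472 values under alternatives, 417 kept their direction and their side of the threshold or, where there was no test, moved by less than the spread between libraries. The count of mitochondrially encoded genes called, 0 in the edgeR fit, was 1 with library totals only (mt-Tp; also with copies summed), 3 with no filter on low counts (mt-Nd3, and mt-Atp6 and mt-Co2, which have at most 46 counts on chrM), 2 with DESeq2 (mt-Nd3 and mt-Tp) and 0 to 1 when each library was left out (1, mt-Nd3, without DSS 1). With library totals only, estimates changed sign for mt-Rnr2 (0.17), mt-Nd1 (0.17), mt-Nd4l (0.15), mt-Nd4 (0.10), mt-Nd5 (0.21), mt-Nd6 (0.12), mt-Cytb (0.11), mt-Te (0.0696), mt-Tl1 (0.0866), mt-Tn (0.0605) and mt-Tc (0.0908). With copies summed as well, mt-Rnr2 was at 0.16 and mt-Nd5 at 0.22, and the rest as before. Leaving out libraries gave ranges that cross 0 for mt-Co1 (-0.0142 to 0.11), mt-Nd5 (-0.13 to 0.0414), mt-Rnr2 (-0.18 to 0.0306), mt-Tn (-0.34 to 0.0688) and mt-Tc (-0.28 to 0.12), and for the log2 ratios of mt-Rnr2 to mt-Nd1 (-0.0528 to 0.0493) and mt-Nd6 to mt-Cytb (-0.0518 to 0.0684). Lane 6 alone put mt-Nd5 at 0.0011, and 10-week mice alone put mt-Tc at 0.11 and the log2 ratio of mt-Rnr2 to mt-Nd1 at 0.0112. The difference in share, DSS minus water, was -0.0152 percentage points outside granule genes (-0.0188 for protein-coding genes). With all copies added complex I differed by -0.981 and complex V by -0.623 percentage points. The cause of these shifts was not tested. No paired analysis was possible because replicates were numbered in accession order and the labels pair no libraries. Low counts limit the tRNA genes most, such as mt-Ti with 13 to 24 counts a library. These genes are 59 to 75 bases long, and a counted read had to overlap by a fraction of 0.8 of its length. The read length, which is not given, therefore bears on their counts as well as depth, and its part was not tested.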
